A study of Mus musculus with 6 samples.

Results

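The features described here were 86 of the 34518 features in a table of noncoding transcription in the mouse left atrium, namely those that lay over a small RNA gene. Each was a transcribed interval with an assembler identifier that overlapped, on the strand listed for it, an exon of a small RNA gene of the GENCODE M21 annotation (mm10 build). Of the 9 gene types in that rule, 6 were found: snRNA (30 features), snoRNA (22), misc_RNA (16), miRNA (12), rRNA (4) and scaRNA (2), and the rule also left out 4 features of an interval on chromosome 12. The rule used position and strand only, and no measured value, but it was chosen with earlier results of these data known. The 86 features held 101 of the 6084 small RNA genes of the annotation, 27 with an established name and 74 with a provisional one, a Gm symbol in 73, and fell into 79 loci when features within 10 kb were joined.

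Left atrial RNA of adult mice of the outbred CD1 stock was sequenced as 3 libraries for each of 2 groups. One group overexpressed FOG2 (FOG2_OE, called DTG in the labels' protocol), the product of Zfpm2 and a partner of GATA factors, and the other was wild type (WT, called NTG). Animals of both groups were kept off doxycycline for 1 week, and the promoter that drives FOG2 and the litters are not given in the sources used here. The study asked how FOG2 changes transcription in the atrium, and this assay read total RNA after removal of ribosomal RNA and of polyadenylated RNA.

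Small RNA genes make short, stable RNAs that work inside protein complexes. The U snRNAs form the spliceosome, box C/D and H/ACA snoRNAs guide methylation and pseudouridylation of ribosomal RNA from the nucleolus, and scaRNAs do the same for snRNAs in Cajal bodies. Among the misc_RNA genes, 7SK holds the elongation factor P-TEFb inactive, 7SL is the core of the signal recognition particle and Y RNAs bind the Ro protein. Many snoRNAs and miRNAs are cut out of introns or exons of longer host transcripts, and the mammalian genome also carries many diverged copies of U6, 7SK, 7SL and ribosomal RNA genes.

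The small RNA copies that lay in features called lower are shown first, to show how far each had diverged from its named gene (mouse sequences of GENCODE M21, mm10, 5′ to 3′). U6 is the catalytic snRNA of the spliceosome, and Rnu6 is its reference gene. Gm47290 (chr12:70673646-70673746, plus strand) and Gm26487 (chrX:59190773-59190866, plus strand) lay in features called lower. Capitals mark bases that differ from Rnu6 or are inserted against it in a global alignment.
Gm47290: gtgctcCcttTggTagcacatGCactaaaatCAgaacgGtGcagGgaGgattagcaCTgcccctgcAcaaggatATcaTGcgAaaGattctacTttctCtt
Gm26487: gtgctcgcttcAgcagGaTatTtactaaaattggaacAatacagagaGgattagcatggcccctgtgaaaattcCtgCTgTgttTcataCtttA
Identity to Rnu6 was 71.8% for Gm47290 and 75.7% for Gm26487. The next 2 are the rRNA-type copies in features called lower, Gm25488 (chr1:161552549-161552666, minus strand) and Gm22216 (chr8:35747449-35747562, plus strand), with differences from Rn5s, the 5S ribosomal RNA gene, in capitals.
Gm25488: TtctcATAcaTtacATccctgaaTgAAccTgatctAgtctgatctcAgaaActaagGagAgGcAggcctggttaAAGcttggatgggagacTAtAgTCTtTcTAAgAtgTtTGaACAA
Gm22216: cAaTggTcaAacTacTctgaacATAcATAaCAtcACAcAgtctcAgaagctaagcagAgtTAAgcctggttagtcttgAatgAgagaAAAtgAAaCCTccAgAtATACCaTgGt
Identity to Rn5s was 65.3% for Gm25488 and 60% for Gm22216. The remaining snRNA gene in a feature called lower, Gm25338 (chr2:48384219-48384338, minus strand), reached at most 52.9% identity to a named small RNA gene.
Gm25338: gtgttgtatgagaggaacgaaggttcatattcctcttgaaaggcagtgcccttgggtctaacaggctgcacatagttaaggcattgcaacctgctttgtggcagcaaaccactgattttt

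Few of the small RNA features were called, and all 6 that were fell. In the authors' deposited table, 0 of the 86 features were higher and 6 were lower in FOG2_OE by a likelihood ratio test with an adjusted p under 0.05 (Benjamini-Hochberg over the whole table), or 6.98% of them. Over all features of the authors' deposited table the share called was 5.81%, of which 4.65% were lower and 1.16% higher. At an unadjusted p under 0.05, the authors' deposited table had 4 small RNA features higher and 8 lower, and all features gave 4.52% higher and 12.5% lower. The share of small RNA features called was near the share over the whole table.

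The median log2 ratio (FOG2_OE over WT, the log2 fold change of the table) was 0.0053 for the 86 features and -0.21 for all features in the authors' deposited table. These medians depend on the scale between the groups: with the median of all features moved to 0, the small RNA features had a median of 0.22, and 6 were still called lower. In the authors' deposited table, 76 of the 86 fold changes lay within 1 log2 unit of 0 and 58 within 0.5, over a range from -4.08 to 1.16. An error for each ratio was solved from its deposited likelihood ratio and is given as SE, with 95% intervals from the normal distribution. The interval stayed within 1 log2 unit of 0 for 39 features and reached past it for 47, so for these a 2-fold change was not excluded by the precision at hand. The median SE was 0.39 for the small RNA features and 0.76 for all features, and the median fitted count was 131.9 and 7.22 per library.

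The 6 sample columns of the authors' deposited table held values fitted by the authors' model, which within a group differ only by library size, so that they carry no spread between animals. Whether the fitted counts of the groups overlap follows from the ratio and the library sizes alone, and says nothing about single libraries. Levels are given as fitted counts per library or as CPM, counts scaled to the effective library size that the table implies, which was 72382924 to 84811961 reads in FOG2_OE and 71100723 to 82159130 in WT. The p-values measure only the spread between these 3 and 3 libraries. In whole atrial tissue, fewer cells of a type and less RNA per cell cannot be told apart.

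The group labels were checked on Zfpm2 itself, where the feature MSTRG.29831 inside the gene had 417 CPM in FOG2_OE and 0.484 CPM in WT and a log2 ratio of 9.74 (SE 0.31, adjusted p = 2.4e-117) by the authors' deposited table. It is listed on the strand opposite to Zfpm2, as are the other 2 features at the locus, which were not called: MSTRG.29829 had a log2 ratio of 0.94 (SE 0.41, adjusted p = 0.191) and MSTRG.29830 one of -1.07 (SE 0.75, adjusted p = 0.482) by the authors' deposited table. Of the atrial muscle genes sought to check the tissue (6 genes), Sln, the atrial regulator of the calcium pump, alone had a feature over its exons, at 2.77 CPM in FOG2_OE and 5.58 CPM in WT, called lower with a log2 ratio of -1.01 in the authors' deposited table. None of the markers sought for ventricular muscle, fibroblasts, endothelium, smooth muscle, leukocytes, red cells, lung and adipocytes had a listed feature over its exons on its strand, so this table could not check the tissue further.

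**Figure D1:**
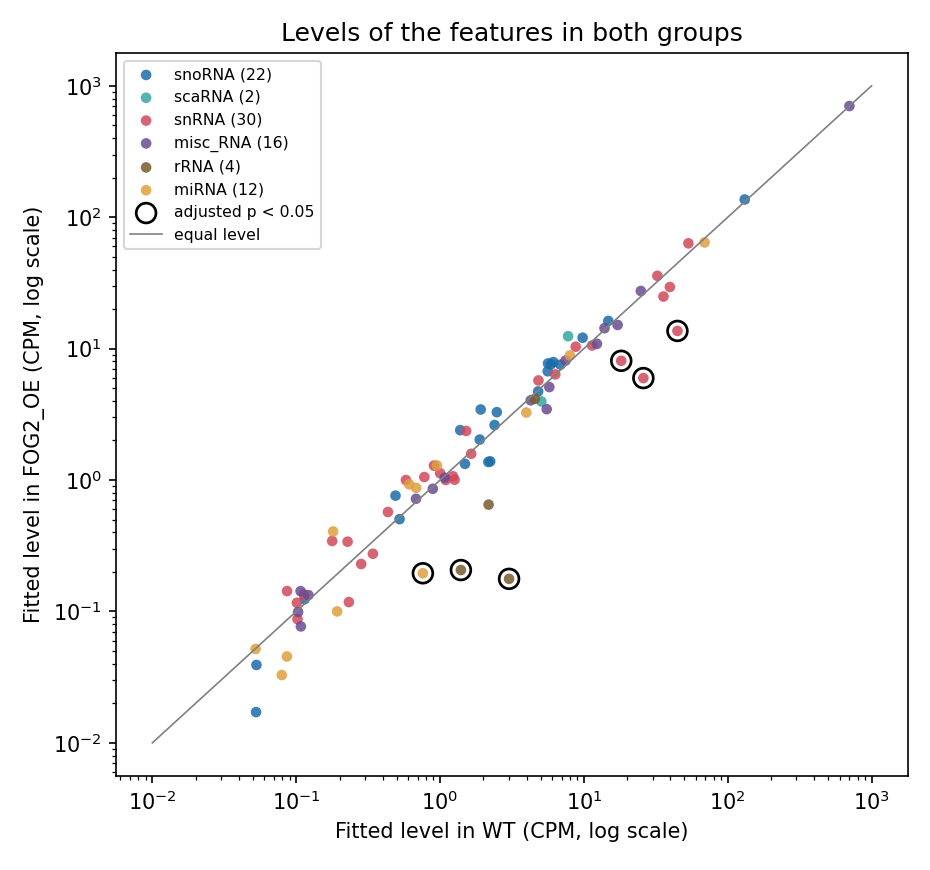
Fitted level of each of the 86 features in WT (x axis, CPM, log scale) and FOG2_OE (y axis, CPM, log scale), coloured by gene type, with the line of equal level and circles around features with an adjusted p under 0.05. Most points follow the line from below 0.1 CPM to the Xist feature at 702 CPM, and the 6 circled points lie below it.

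As the plot of levels in both groups shows, the features spanned more than 4 orders of magnitude, from 0.0349 to 702 CPM averaged over the groups. Together they held 1350 CPM in FOG2_OE and 1406 CPM in WT, or 0.135% and 0.141% of the effective library, and 648 and 704 CPM without the most abundant of them. That one, MSTRG.90114 (chrX:103460447-103471666), covered Xist, the long RNA that coats the inactive X chromosome. It entered the group because the annotation places the misc_RNA entries Gm27733 and Gm27927 inside Xist. Its fitted counts were 55882, 50825 and 59553 in FOG2_OE and 49889, 54951 and 57648 in WT. Its log2 ratio was 0.00 (SE 0.32, 95% interval -0.63 to 0.63) in the authors' deposited table. The library kit that the labels name keeps no strand, so reads of Tsix, the antisense gene of Xist, cannot be told apart from reads of Xist. The feature over the exons of Jpx, an RNA gene next to Xist known to activate it, had 8.11 CPM in FOG2_OE and 7.45 CPM in WT and a log2 ratio of 0.12 (SE 0.28) in the authors' deposited table.

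The 6 features called lower were mostly long intervals in which the small RNA gene made up a small share. The small RNA gene covered between 0.03% and 6.06% of each of the 6 spans, and the table gives 1 value for a span. Whether the fall was in the small RNA or in the rest of the span cannot be told apart. Fitted counts of the 6 are given next, in order of their fold change.

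The largest fall was in MSTRG.5377 (chr1:161516212-161704597, minus strand), a span of 188386 bases that lay between genes, 21.6 kb from the start of Tnfsf18, a cytokine gene of the tumour necrosis factor family, and held the rRNA-type gene Gm25488. Its fitted counts were 14.1, 12.8 and 15.0 in FOG2_OE and 215, 236 and 248 in WT. That is 0.177 CPM against 3.02 CPM in WT, 17.1-fold lower with FOG2, with a log2 ratio of -4.08 (SE 0.45, adjusted p = 1.2e-14) by the authors' deposited table.

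MSTRG.79948 (chr8:35725404-35756779, plus strand), with the rRNA-type gene Gm22216, ran over exons of Gm35021, an uncharacterised gene, 69.8 kb from the start of the claudin gene Cldn23. It had fitted counts of 16.4, 15.0 and 17.5 in FOG2_OE and 99.3, 109 and 115 in WT. The fitted level was 6.76-fold lower in FOG2_OE. The log2 ratio was -2.75 (SE 0.47, adjusted p = 1.3e-06) by the authors' deposited table.

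MSTRG.19448 (chr12:70650000-70693925, plus strand) held the U6 copy Gm47290 and ran over exons of Gm48866 and Gm24474. Its fitted counts were 475, 432 and 506 in FOG2_OE and 1843, 2030 and 2129 in WT. The log2 ratio of -2.12 (SE 0.24, adjusted p = 2.5e-14) by the authors' deposited table was a 4.34-fold lower level. It was measured at 5.97 CPM in FOG2_OE and 25.9 CPM in WT and had one of the smaller errors of the group. Gm32369 has exon sequence on the opposite strand, and its reads cannot be told apart without strand.

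MSTRG.39725 (chr18:24428860-24429865, minus strand), a feature of 1006 bases between genes, held Mir187, a miRNA gene, and was the one called feature under 20 kb and the one with an established small RNA name. It had fitted counts of 15.5, 14.1 and 16.6 in FOG2_OE and 54.0, 59.5 and 62.4 in WT. The fitted level was 3.89-fold lower, with a log2 ratio of -1.95 (SE 0.50, adjusted p = 0.0042) by the authors' deposited table. The feature is far longer than a mature miRNA, so its value is that of a longer transcript over the gene.

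MSTRG.46282 (chr2:48058871-48457224, minus strand), the longest feature of the whole table at 398354 bases, held Gm25338 and ran over exons of the uncharacterised gene Gm13481, 357 kb from the start of the activin receptor gene Acvr2a. Its fitted counts were 1086, 987 and 1157 in FOG2_OE and 3180, 3503 and 3675 in WT. It was the most abundant of the 6, at 13.6 CPM in FOG2_OE and 44.7 CPM in WT. Its level was 3.28-fold lower, with a log2 ratio of -1.71 (SE 0.27, adjusted p = 1.5e-07) by the authors' deposited table. Exons of Gm13471, Gm13472 and Gm13482 lie on the opposite strand, and their reads cannot be told apart without strand.

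MSTRG.89398 (chrX:59179566-59204541, plus strand) held the U6 copy Gm26487 and ran over exons of Gm14890 on the strand opposite to Fgf13, which encodes a regulator of cardiac sodium channels. It had fitted counts of 643, 585 and 685 in FOG2_OE and 1293, 1424 and 1494 in WT. The fold change was the smallest of the 6, 2.25-fold lower, with a log2 value of -1.17 (SE 0.30, adjusted p = 0.0042) by the authors' deposited table. Reads of Fgf13 and of this feature cannot be told apart without strand.

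**Figure D2:**
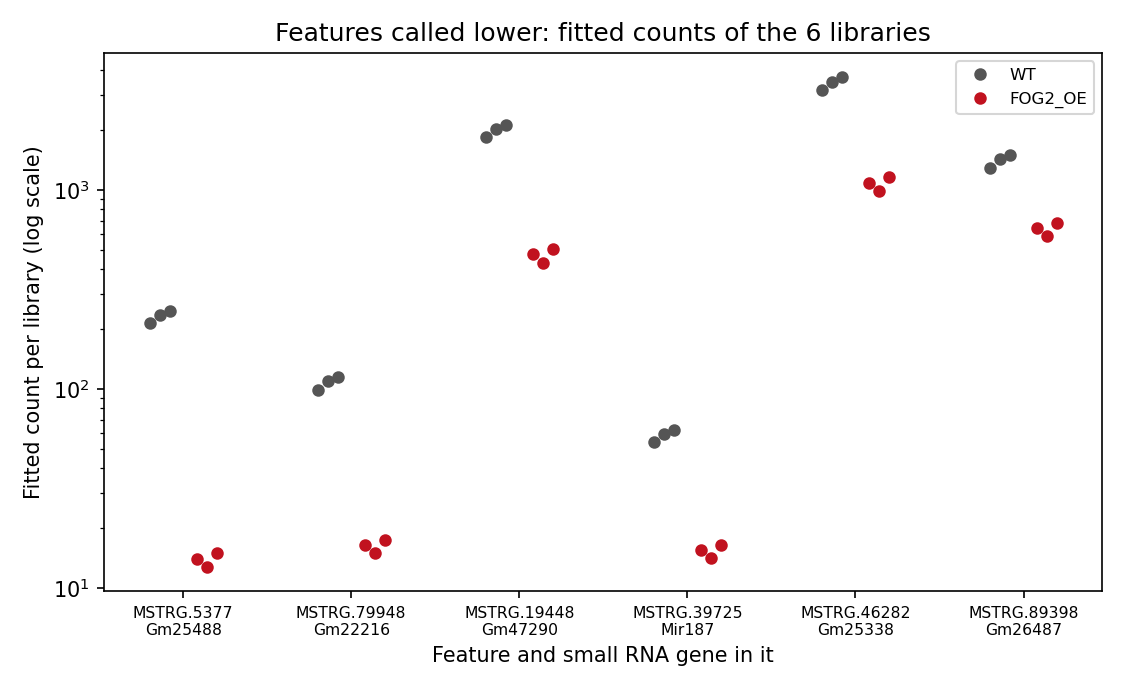
Fitted count per library (y axis, log scale) of the 6 features called lower, with 3 WT and 3 FOG2_OE libraries each. The gap is widest for MSTRG.5377, at 12.8 to 15.0 against 215 to 248. Points of a group differ only by library size, so the gaps show fitted ratios and not the spread between libraries.

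The plot of fitted counts for the called features shows the 6 gaps side by side. The likelihood ratio test treats each dispersion as known. When the same ratios were read against F with 10 residual degrees of freedom, 4 of the 6 stayed below 0.05, and MSTRG.39725 and MSTRG.89398 did not (adjusted p = 0.121 for each), where 1.07% of all features were called lower. With 4 residual degrees of freedom, 0 features of the whole table were called. At an unadjusted p under 0.05 this setting gave 6 small RNA features lower and 0 higher (6.98% and 0% of them), beside 5.58% and 1.53% of all features.

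The surroundings of the called features varied. Within 100 kb of MSTRG.5377 the table listed 45 other features, of which 40 were called lower and 0 higher, with a median log2 ratio of -5.21 in the authors' deposited table. Near MSTRG.19448, 2 of 3 other features were called lower (median -3.64), and near MSTRG.46282, 3 of 4 (median -3.09), in the authors' deposited table. Near MSTRG.39725, 3 of 13 were called lower, with a median of -0.56 in the authors' deposited table. MSTRG.79948 had 1 neighbour, which was not called, and MSTRG.89398 had none. Around the other 9 small RNA features of 20 kb or more, 0 neighbours were called, the largest set being 84 around MSTRG.56643, a U6 copy over Gm30382. Neighbouring features share a domain and are not independent of each other.

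**Figure D3:**
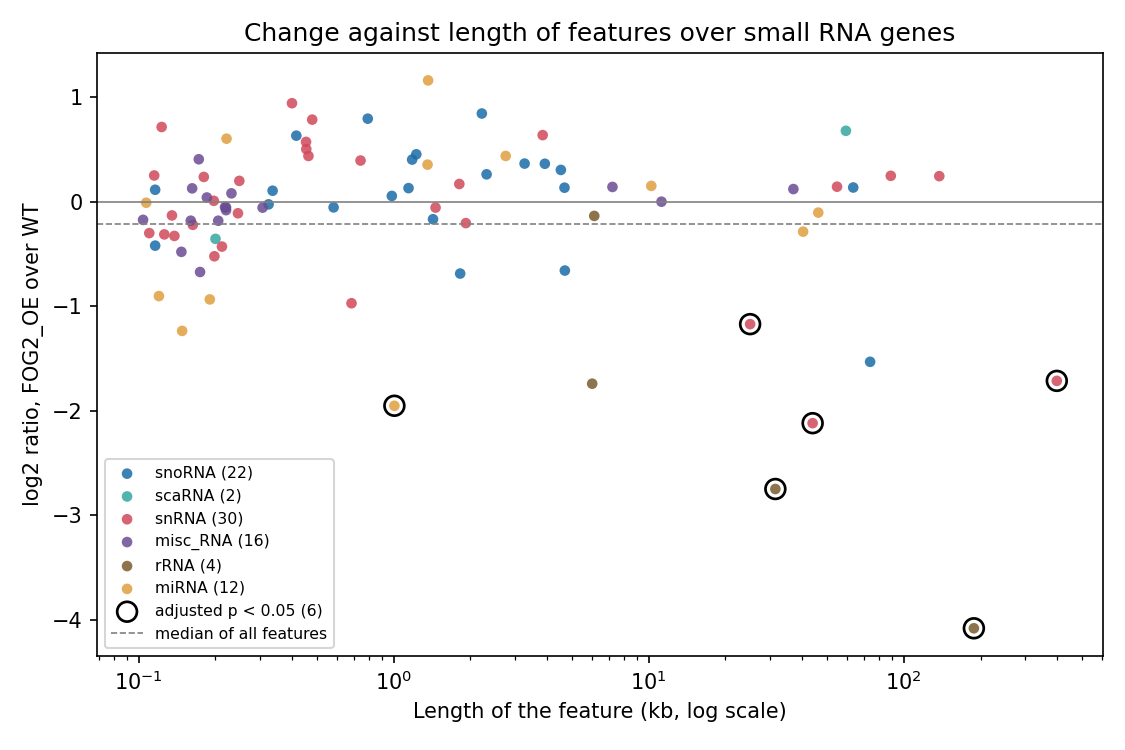
Log2 ratio of FOG2_OE over WT (y axis) against length of the feature (x axis, kb, log scale) for the 86 features, coloured by gene type, with circles around features with an adjusted p under 0.05. The dashed line is the median of all features at -0.21, and 5 of the 6 circles lie at 20 kb or more.

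Length went with the calls. Of the 14 small RNA features of 20 kb or more, 5 were called lower, or 35.7%, and in the authors' deposited table all 174 features of that length gave 34 lower and 8 higher calls, or 24.1% called. Of the 72 shorter ones, 1 was called lower, or 1.39%, against 5.72% of all shorter features in the authors' deposited table. Among the 29 features in which small RNA genes made up at least 50% of the span, 0 were called, all lay within 1 log2 unit of 0 and the median was -0.11 (unadjusted p under 0.05: 0 up and 1 down) in the authors' deposited table. The plot of change against length shows that the features under 1 kb, 47 in number, had no call in either direction (unadjusted: 1 higher and 1 lower). The longer features also had more reads, with a median fitted count of 906 per library against 89.0 and a median SE of 0.29 against 0.40, and the part of depth in these shares was not tested.

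The snRNA features came next by role. Of the 30, 0 were higher and 3 lower (MSTRG.19448, MSTRG.46282 and MSTRG.89398), with a median log2 ratio of 0.08 in the authors' deposited table. Over all features 1.16% were called higher and 4.65% lower. By sequence, 10 were U6-like, 9 U2-like, 4 U5-like and 2 U1-like, where a copy was placed with a family at 70% identity or more to a named gene. Reads of near-identical copies cannot be placed with certainty, and how the counting treated them is not stated, so single copies are uncertain.

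The U2-like features carried copies of the snRNA that pairs with the branch point, at 95.3% to 99.5% identity to Rnu2-10. They had log2 ratios from -0.31 to 0.79, and 0 of 9 were called, also at an unadjusted p under 0.05, in the authors' deposited table. The share called over all features was 5.81%. The most abundant, MSTRG.2103 over Gm25939, stood at 10.6 CPM in FOG2_OE and 11.4 CPM in WT. MSTRG.16254, of which part of Rnu2-10 covered 7.71%, had a log2 ratio of 0.50 with an SE of 0.47 in the authors' deposited table. Its value is mostly that of the sequence beside the gene. Coverage by the U2-like copy ranged from 3.70% to 100% over the 9 features.

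U5 holds the exons in place during splicing. The 4 U5-like features all had log2 ratios above 0, from 0.39 to 0.94, and 0 were called (1 higher at an unadjusted p under 0.05) in the authors' deposited table. The U5-like genes covered between 10.3% and 17.7% of the 4 features, so the values are mostly those of the sequence beside them. MSTRG.85517, of which part of Rnu5g covered 12.4%, had 0.339 CPM in FOG2_OE and 0.228 CPM in WT. Its log2 ratio was 0.57 with an SE of 0.51 in the authors' deposited table. The largest value, 0.94 (SE 0.46, adjusted p = 0.263) by the authors' deposited table, came from MSTRG.85516 over Gm25313, which lies close to Rnu5g on chromosome 9.

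Outside the 2 called features, the U6-like features had log2 ratios from -0.22 to 0.64 in the authors' deposited table. The most abundant of them was MSTRG.1214, a span over exons of Nab1, a corepressor of EGR factors, with 63.3 CPM in FOG2_OE and 53.3 CPM in WT and a log2 ratio of 0.25 (SE 0.20) in the authors' deposited table. MSTRG.40575, over exons of Fem1c, a substrate receptor of a ubiquitin ligase, had 35.8 and 32.4 CPM and a log2 ratio of 0.14 (SE 0.20) in the authors' deposited table. In both, the U6 copy took up a small part of the span. The features of the best-preserved copies, Gm24182 and Gm24859 at 99.1% identity to Rnu6, had low values, at 0.135 and 0.0874 CPM in FOG2_OE and 0.113 and 0.102 CPM in WT. Part of Gm24859 covered 19.6% of its feature. Levels of copies so alike are uncertain, as reads may not be placed with one of them.

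The highest levels per kb of feature belonged to a neighbouring pair on chromosome 5, MSTRG.66230 over Gm24265 (chr5:115489459-115489599) and MSTRG.66233 over Gm24407 (chr5:115490254-115490394), at 163 and 153 CPM per kb. No named gene of the annotation resembled them at 70% identity, and both read as U4, the snRNA that holds U6 inactive until the spliceosome is assembled. They are shown because they differ at 2 bases only, in capitals in the second, so that many reads could come from either.
Gm24265: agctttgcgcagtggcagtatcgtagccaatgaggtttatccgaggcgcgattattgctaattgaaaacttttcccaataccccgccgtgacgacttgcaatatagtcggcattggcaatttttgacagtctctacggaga
Gm24407: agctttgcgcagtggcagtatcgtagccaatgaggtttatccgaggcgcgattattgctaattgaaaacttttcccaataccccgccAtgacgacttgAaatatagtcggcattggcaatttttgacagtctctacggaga
Gm24265 covered 66.5% of MSTRG.66230, and part of Gm24407 covered 51.5% of MSTRG.66233. MSTRG.66230 had fitted counts of 2344, 2132 and 2498 in FOG2_OE and 2817, 3103 and 3256 in WT. MSTRG.66233 had 1983, 1803 and 2113 in FOG2_OE and 2542, 2800 and 2937 in WT. Neither passed the test, with log2 ratios of -0.43 (95% interval -0.92 to 0.06, adjusted p = 0.385) and -0.52 (95% interval -1.02 to -0.02, adjusted p = 0.272) by the authors' deposited table.

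The snoRNA features showed no calls. Of the 22, 0 were higher and 0 lower (1 and 0 at an unadjusted p under 0.05), with a median log2 ratio of 0.13 in the authors' deposited table. Among all features 1.16% were called higher and 4.65% lower, so 0 calls among so few features is no result about snoRNAs. The 12 that held a named snoRNA had a median of 0.36, with 11 above 0 and a range of -0.17 to 0.84, while the 10 with provisional snoRNAs had a median of -0.04, in the authors' deposited table. These medians are descriptions, and they stood against -0.21 for all features. Small RNA genes covered between 2.67% and 31.0% of the 12 named features, and each span has 1 value. Changes in the snoRNA and in the rest of the span cannot be told apart.

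The named snoRNAs carry the short boxes by which their proteins recognise them. For box C/D snoRNAs, capitals mark TGATGA within the first 25 bases and CTGA within the last 25, and for H/ACA snoRNAs the ACA that stands 3 bases from the end. Motifs were sought on the strand of the gene only. The 5 shown lie in host genes, and all carry the motifs. Among those not shown, Snord118 and Snord13 lacked TGATGA within the first 25 bases and Snora44 lacked the ACA.
Snord52: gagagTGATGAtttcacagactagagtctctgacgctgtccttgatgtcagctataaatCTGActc
Snord50b: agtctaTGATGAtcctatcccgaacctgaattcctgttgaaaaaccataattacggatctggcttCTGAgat
Snord87: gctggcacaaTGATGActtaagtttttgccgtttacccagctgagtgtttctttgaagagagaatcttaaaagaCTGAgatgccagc
Snora24: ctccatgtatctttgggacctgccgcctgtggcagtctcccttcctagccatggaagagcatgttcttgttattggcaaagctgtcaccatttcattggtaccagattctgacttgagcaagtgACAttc
Snora26: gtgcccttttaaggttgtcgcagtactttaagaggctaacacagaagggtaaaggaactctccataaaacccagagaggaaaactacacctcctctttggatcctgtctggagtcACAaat
Both box C/D motifs were found in 6 of the 8 named Snord genes in these features (75%) and in 69 of all 98 named Snord genes (70.4%), and in 5.24% of all small RNA genes. The ACA was found in 7 of 8 named Snora genes (87.5%) and in 35 of all 42 (83.3%), and in 6.54% of all small RNA genes. A match is a description of the sequence and not evidence of a working box.

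The highest fold change among snoRNA features was that of MSTRG.37243 (chr17:34950236-34952451), which held Snord52 and Gm25744 and ran over exons of the noncoding host gene 1110038B12Rik. It had fitted counts of 274, 249 and 292 in FOG2_OE and 136, 150 and 157 in WT. The log2 ratio of 0.84 (SE 0.41, adjusted p = 0.258) by the authors' deposited table did not pass. Snord118, the U8 snoRNA needed to process the large ribosomal RNAs, lay in MSTRG.14145 with fitted counts of 191, 174 and 203 in FOG2_OE and 98.2, 108 and 113 in WT. The log2 ratio of that feature, 0.80 (SE 0.43, adjusted p = 0.329) by the authors' deposited table, did not pass either. Snord118 covered 17.1% of it.

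The other named snoRNAs mostly sat in known host transcripts. The log2 ratios given are those of the features that hold them. In the authors' deposited table, they were 0.63 with Snord60 in Rab26os, 0.45 with Snord50b in Snhg5 and 0.40 with Snora26 in Dancr. They were 0.37 with Snord87 in Snhg6 and 0.36 with Snora24 in Snhg8, in the authors' deposited table. Snora33 and Snord100, in the ribosomal protein gene Rps12, had 0.30, and Snora16a, Snora44, Snora61 and Snord99, all in Snhg12, had 0.26, in the authors' deposited table. Below 0 stood Snora9 in Snhg15, at -0.17 in the authors' deposited table, and at 0.05 once the median of all features was moved to 0. Implied SEs of these 8 features lay between 0.26 and 0.43, and each 95% interval included 0. Small RNA genes covered between 2.67% and 20.3% of the 8 features, so the values are mostly those of the rest of the span.

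Rnu3a, the U3 snoRNA that directs the first cuts of the ribosomal RNA precursor, lay in MSTRG.7603 (chr10:40257753-40258735), the feature with the highest CPM after that of Xist. Its level per length was 136 CPM per kb, and Rnu3a covered 21.8% of it. It had fitted counts of 10866, 9882 and 11579 in FOG2_OE and 9337, 10284 and 10789 in WT. The log2 ratio was 0.06 (SE 0.27, 95% interval -0.47 to 0.58) in the authors' deposited table, and the interval lay inside a 2-fold change in either direction. Gtf3c6 has exon sequence on the opposite strand of MSTRG.7603, and its reads cannot be told apart without strand. Snord13, which guides acetylation of small-subunit ribosomal RNA, covered 31.0% of its feature. That feature had 2.03 CPM in FOG2_OE and 1.89 CPM in WT and a log2 ratio of 0.11 (SE 0.38) in the authors' deposited table.

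Provisional snoRNA features included 3 over Snhg17, with log2 ratios of 0.14, 0.12 and -0.05, and 1 each over Epb41l4aos (0.13), 2310014F06Rik (0.14) and Taf1d (-0.02), in the authors' deposited table. In the authors' deposited table, the feature with Gm23017, a copy of Snord50a at 98.6% identity in 9430037G07Rik, had -0.66 (SE 0.37). The feature with Gm25373 had -0.69 (SE 0.39), in the authors' deposited table. The lowest, Gm24551 at -1.53 in the authors' deposited table, had only 2.71 fitted counts per library and an SE of 1.12.

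**Figure D4:**
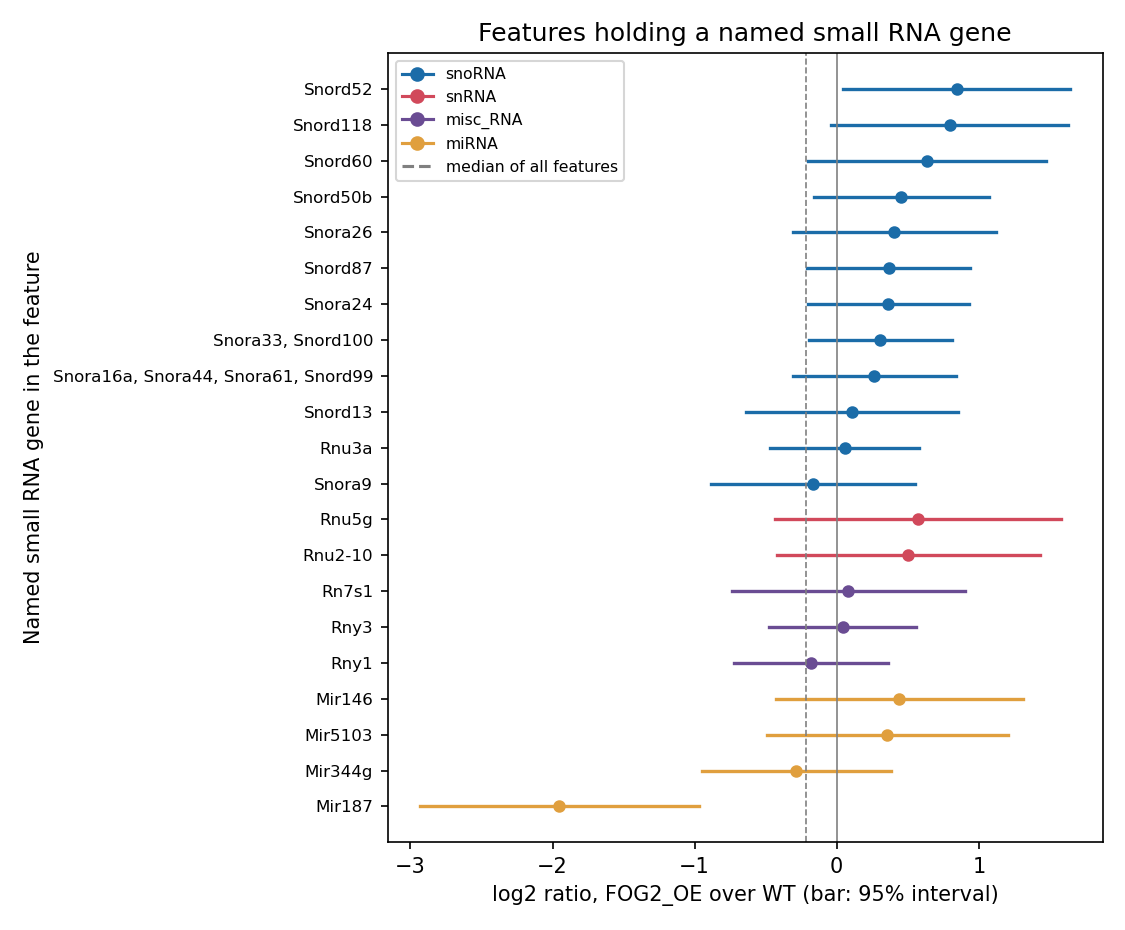
Log2 ratio of FOG2_OE over WT (x axis) for the 21 features that hold a named small RNA gene (y axis), coloured by gene type. Bars are 95% intervals from the SE, and the dashed line is the median of all features at -0.21. Mir187 alone lies with its whole interval below 0, and 17 of the 21 points lie above 0.

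As the plot of named small RNA genes shows, their features had a median log2 ratio of 0.36 in the authors' deposited table, with 17 of 21 above 0, 0 called higher and 1 called lower. The 65 features with provisional genes only had a median of -0.06, with 5 called lower, in the authors' deposited table. That is 4.76% of the named and 7.69% of the provisional features called, where all features gave 5.81%, so the calls set neither class apart. Small RNA genes covered from 0.18% to 88.7% of the 21 named features, and each value is that of the whole span. The difference between the classes was not tested.

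Both scaRNA features were uncalled. Gm24289 lay in MSTRG.85491, a span over exons of Tipin, a replication fork protein, with 12.4 CPM in FOG2_OE and 7.77 CPM in WT. Its fitted counts were 990, 900 and 1055 in FOG2_OE and 552, 608 and 638 in WT, and the log2 ratio of 0.68 (95% interval 0.02 to 1.34, adjusted p = 0.275) by the authors' deposited table did not pass. Gm23119 (MSTRG.41447) had a log2 ratio of -0.35 (SE 0.33) in the authors' deposited table.

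The 16 misc_RNA features held Y RNAs, 7SK and 7SL copies and the Xist entries. Of them 0 were called higher or lower, and 0 also at an unadjusted p under 0.05, with a median log2 ratio of -0.05 in the authors' deposited table. Over all features 5.81% were called, and at an unadjusted p under 0.05 4.52% were higher and 12.5% lower. With so few features, 0 calls is no result about these RNAs. The mouse Y RNA genes Rny1 and Rny3 lie close together on chromosome 6, on opposite strands. They are shown because their features were among the most abundant per kb, at 72.5 and 76.3 CPM per kb, and capitals mark the longest run of bases that they share.
Rny1: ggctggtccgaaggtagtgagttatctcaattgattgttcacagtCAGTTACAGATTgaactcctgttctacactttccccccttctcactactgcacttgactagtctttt
Rny3: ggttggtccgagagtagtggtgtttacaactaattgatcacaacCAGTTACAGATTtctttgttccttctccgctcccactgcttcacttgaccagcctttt
The pair was 72.3% identical. Part of Rny1 covered 56.9% of its feature, and Rny3 covered 55.1% of its own. The Rny1 feature (MSTRG.69302) had fitted counts of 865, 787 and 922 in FOG2_OE and 876, 965 and 1013 in WT. The Rny3 feature (MSTRG.69301) had 1139, 1036 and 1214 in FOG2_OE and 989, 1089 and 1143 in WT. The log2 ratios were -0.18 (SE 0.28) and 0.04 (SE 0.26) in the authors' deposited table, and that of Rny1 became 0.03 when the median of all features was moved to 0.

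The 5 features with 7SK-like copies (80.2% to 84.2% identity to Rn7sk) had log2 ratios from -0.67 to 0.41 in the authors' deposited table. The most abundant was MSTRG.67336 over Gm24146, with 15.1 CPM in FOG2_OE, 17.2 CPM in WT and 78.8 CPM per kb. Its log2 ratio of -0.18 (SE 0.29) in the authors' deposited table became 0.03 on the moved scale. Of the 4 7SL-like features, the one with Rn7s1 (MSTRG.19372) had a log2 ratio of 0.08 (SE 0.42) in the authors' deposited table. Rn7s1 is identical in sequence to Rn7s2, so its reads cannot be assigned to one gene. MSTRG.39511, a span over exons of the imprinted gene Impact, had 27.5 CPM in FOG2_OE and 24.9 CPM in WT and a log2 ratio of 0.14 (SE 0.22) in the authors' deposited table.

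All 4 rRNA-type features had log2 ratios below 0, and 2 were called lower (MSTRG.5377 and MSTRG.79948), in the authors' deposited table. Over all 34518 features, 20930 lay below 0, and 4.65% were called lower and 1.16% higher. The rRNA-type genes covered between 0.06% and 2.23% of the 4 features, so the values are mostly those of the rest of the span. None of the 4 rRNA-type genes reached 70% identity to Rn5s. Gm24649 lay in MSTRG.86476, opposite Cep162, with fitted counts of 51.8, 47.1 and 55.2 in FOG2_OE and 155, 170 and 179 in WT. With an SE of 0.75, the log2 ratio of -1.74 (adjusted p = 0.191) by the authors' deposited table did not pass. The feature with n-R5s189 in Junos, a transcript beside the Jun gene, had fitted counts of 330, 300 and 352 in FOG2_OE and 324, 357 and 374 in WT and a log2 ratio of -0.13 (SE 0.33) in the authors' deposited table.

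The 12 miRNA features held 13 miRNA genes, and 4 more lay in misc_RNA and snoRNA features. Mature sequences of 3 of these 17 were found in the RefSeq table (GRCm38.p6). These are printed with the seed, bases 2 to 8, in capitals, and no seed is shared between the 3 genes.
mmu-miR-146a-5p: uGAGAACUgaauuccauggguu
mmu-miR-146a-3p: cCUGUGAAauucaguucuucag
mmu-miR-344g-5p: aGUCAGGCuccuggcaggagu
mmu-miR-344g-3p: cAGGCUCUagccaggggcuuga
mmu-miR-5103: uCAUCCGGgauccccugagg
The assembled features were at least 101 bases long, so the values are those of longer transcripts over the miRNA genes and not of mature miRNAs. Of the 12, 0 were called higher and 1 lower (MSTRG.39725), with a median log2 ratio of -0.06 in the authors' deposited table. Over all features the shares were 1.16% higher and 4.65% lower.

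Mir146 encodes miR-146a, a brake on innate immune signalling, and its feature MSTRG.12610 (chr11:43371956-43374703) had fitted counts of 103, 93.5 and 110 in FOG2_OE and 67.7, 74.6 and 78.2 in WT. The log2 ratio of 0.44 (SE 0.44, adjusted p = 0.677) by the authors' deposited table did not pass. Mir5103 (MSTRG.571) had 0.36 (SE 0.43), and Mir344g in A330076H08Rik (MSTRG.75736) had -0.29 (SE 0.34), as log2 ratios in the authors' deposited table.

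The highest fold change of all 86 features was that of MSTRG.36425, which held the provisional Gm25083 opposite Mslnl. It had fitted counts of 32.3, 29.4 and 34.4 in FOG2_OE and 12.8, 14.1 and 14.8 in WT. The log2 ratio was 1.16 (SE 0.57, adjusted p = 0.270) by the authors' deposited table, so it did not pass. The abundant MSTRG.84036 over Gm44453 and exons of Gm47496 had 64.3 CPM in FOG2_OE and 69.1 CPM in WT and a log2 ratio of -0.10 (SE 0.20) in the authors' deposited table, which became 0.11 on the moved scale. The other provisional miRNA features had log2 ratios of 0.60 (Gm44349), 0.15 (Gm23802), -0.01 (Gm25911), -0.90 (Gm22137), -0.93 (Gm25732 and Gm24245) and -1.24 (Gm44341), none called, in the authors' deposited table.

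Position was described for all 86. On the listed strand, 33 lay over an exon of a longer gene, 39 lay between genes, 12 opposite another gene and 2 in an intron. Wherever a gene lies on the opposite strand of a feature, its reads cannot be told apart without strand. Among the 33 over exons, 4 were called lower and 0 higher, with a median log2 ratio of 0.14, and among the 39 between genes, 2 were lower and 0 higher, with a median of -0.13, in the authors' deposited table. The shares over all features were 4.65% lower and 1.16% higher. In 54 features a small RNA gene lay wholly inside, in the other 32 it was cut by an end of the feature, and 11 features held at least 2 small RNA genes.

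Host genes of small RNAs and genes of their biogenesis were followed as lists. For 23 host genes, such as Gas5, the Snhg genes, Mir17hg and Mir99ahg, features were sought on either strand, on or within 10 kb of them. Of the 23 genes, 17 had features, 64 in all, 9 of which are among the 86. Of these 64, 0 were called higher and 0 lower (0 and 7 at an unadjusted p under 0.05), with a median log2 ratio of -0.20 in the authors' deposited table. Many of the 64 lay at Mir99ahg, which also held most of the 7, so these values lean on that locus. Gas5 had a feature on the opposite strand only. All features gave 1.16% higher and 4.65% lower (4.52% and 12.5% at an unadjusted p under 0.05), which are the shares to set beside both lists. For 20 biogenesis genes, such as Fbl and Nop56 (core proteins of box C/D particles), Dkc1 (the pseudouridine synthase) and Dicer1, 11 had 24 features. Here too 0 were called higher and 0 lower (1 and 2 at an unadjusted p under 0.05), with a median of -0.32 in the authors' deposited table. The 24 features include both strands and flanks of the genes. Dkc1 and Dicer1 had a feature on the opposite strand only, at 10.2 and 3.18 fitted counts per library. Polyadenylated RNA was depleted from the libraries, so these values need not follow the mRNAs of the listed genes.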

How the data were processed

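Total RNA of left atria from 3 FOG2_OE and 3 WT libraries lost its ribosomal and polyadenylated fractions before library making with a kit that does not mark strand, per the labels' protocols. Tools in the submitters' processing notes are edgeR, STAR, deepTools and HTSeq 0.6.0, on mm10, with no roles. The deposited table gave for each of 34518 features a position, a log2 fold change and a log2 CPM from the authors' comparison. It also gave the authors' likelihood ratio score, p-value and adjusted p-value. Its 6 sample columns, deposited by the authors without a stated unit, were constant multiples of each other within a group (largest relative spread 1.8e-14), were taken to be the model's fitted values and could not enter a count test. The edgeR fit planned in case of counts was therefore not run, and the authors' deposited table gave the main result.

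Effective library sizes were solved here from 788 features above 300 fitted counts in both groups. The negative binomial dispersion that returns each deposited ratio was solved for ratios of at least 0.1 (68 of the 86 features) and otherwise taken from features of like abundance, and gave the implied SE. The steps were tested on simulated data. Features were placed on GENCODE M21. Of 102 symbols in a RefSeq table, 96 started 1 base earlier in the deposited table, which counts from 0. Positions are printed counting from 1. Copies were aligned globally to named genes with Biopython 1.88. The rest was done in Python 3.11.15 (scipy 1.17.1, numpy 2.4.6, pandas 2.3.3, matplotlib 3.10.9).

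The members and lists were chosen with earlier results of these data known. Named features were those with an adjusted p under 0.05, the 10 with the highest CPM, and those over miRNA genes or small RNAs of known function. Alternatives were another scale between the groups, F distributions in place of the chi-square, a stricter threshold, a filter at 20 fitted counts and other rules of membership.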

Additional observations from a re-analysis of the deposited data

How the results depend on the processing

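The count of 6 features called lower became 0 when the ratios were read against F with 4 residual degrees of freedom (smallest adjusted p = 0.583), 1 with provisional genes left out, 1 among features under 20 kb and 0 where small RNA covered at least 50% of the feature. The last 2 were chosen after seeing the data and, like the second, test fewer features. It was 4 with 10 degrees of freedom and 8 with overlap on either strand, which also added 1 feature called higher, MSTRG.69033 over Gm23010 (log2 ratio 3.12 in the authors' deposited table). It stayed at 6 for a threshold of 0.01, a filter at 20 fitted counts, small RNA genes wholly inside, joined loci and the median ratio centred at 1. The median log2 fold change was 0.22 when centred, 0.36 without provisional genes and -0.11 at 50% coverage. Summed CPM in FOG2_OE was 1567 when centred, 1523 on either strand, 225 without provisional genes and 648 without the Xist feature, and in WT 208 and 704 for the last 2. No feature stood at 0 in a group, so no bound was needed. Of 45 named features, 6 changed sign when centred: MSTRG.11570 (0.048), MSTRG.5206 (0.21), MSTRG.6063 (0.14), MSTRG.67336 (0.034), MSTRG.69302 (0.034) and MSTRG.84036 (0.11). Over all features, centring gave 560 higher and 1199 lower calls, 68.2% lower, against 402 and 1605. No paired analysis was possible because the sample columns hold fitted values that within a group are constant multiples of each other, and for the same reason no replicate could be left out. Low depth limits the 17 features under 20 fitted counts.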
